A study of Rattus norvegicus with 15 samples.

Results

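The microRNAs (miRNAs) miR-146a and miR-146b are 2 of the 350 miRNAs on a rat miRNA array, and both were taken by the names rno-miR-146a and rno-miR-146b that the array files print. They were measured in total RNA of sciatic nerve from adult male rats, on 15 single-colour arrays in 5 groups of 3. The groups were day 0 (normal nerve, labelled 0h) and days 1, 4, 7 and 14 after injury. All 5 groups, day 0 included, are labelled as proximal stumps of sciatic nerve. The series text describes a resection with 0.5 cm of proximal nerve, whereas the treatment protocol describes a crush with damaged sections of about 0.5 mm, and injury stands here for both. The strain is not given in the sources used here. The labels do not say that replicates came from separate animals, so p-values reflect only how much these samples varied, which may be technical.

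miR-146a and miR-146b come from separate genes and form 1 family. In immune cells the transcription of miR-146a is induced through NF-kB after Toll-like receptor or interleukin-1 receptor stimulation. miR-146a is known to repress the signalling proteins IRAK1 and TRAF6 of those same receptors, a negative feedback loop. A miRNA finds its targets mainly through its seed, bases 2 to 8 from the 5′ end. Both mature sequences, from RefSeq on the rat build GRCr8, are shown with the seed in capitals because the members share it:
rno-miR-146a-5p: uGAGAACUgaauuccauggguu
rno-miR-146b-5p: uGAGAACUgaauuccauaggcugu
The same sequences are shown again with the bases that differ in capitals, since the arrays had to tell the members apart by them:
rno-miR-146a-5p: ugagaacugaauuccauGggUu
rno-miR-146b-5p: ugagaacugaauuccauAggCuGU
The first 17 bases were identical. The 2 substitutions were G18A and U21C, with the miR-146a base first and positions counted from 1 at the 5′ end, and miR-146b (24 bases) had 2 more bases at its 3′ end than miR-146a (22 bases). Among 693 mature rat entries of RefSeq, only these 2 carried the seed GAGAACU.

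miR-146a-5p lies on chr10:28350053-28350074 on the minus strand of GRCr8. Its gene Mir146a overlaps a long non-coding RNA gene, LOC134480673, and the protein-coding genes Pttg1 and Slu7 follow it on the chromosome. miR-146b-5p lies on chr1:255144874-255144897 on the plus strand. Its gene Mir146b overlaps the protein-coding gene C1h10orf95, between Cuedc2 and Mfsd13a. The array files do not say which arm of the hairpin either name means, and no other name on the array contains miR-146.

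The number of arrays, 3 in each group, limits the precision. Between 200 and 239 miRNAs were called detected on 14 of the arrays, against 172 on day 14 replicate 3, which also had the highest share of outlier spots (5.67%) and a negative-control mean of -8.54 intensity units. Both miR-146 species were detected on all 15 arrays, with no saturated spot. Day 0 replicate 1 stood apart in the muscle miRNAs, whose summed level was 16.3 there and 0.738 and 1.24 on the other day 0 arrays. Days 0, 1 and 4 each lay on a slide of their own, days 0 and 1 also on a scan day of their own, so slide and group cannot be told apart in any comparison with day 0. Only slide 4 held arrays of more than 1 group, all 3 of day 7 and replicates 1 and 2 of day 14.

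miR-146a was lower on days 1 and 4 after injury than in normal nerve and overlapped its day 0 level on day 14. On day 7 its mean was below that of normal nerve under all 6 scalings, and it was called lower under 3 of them. Its level is given as log2 of the background-subtracted intensity over the array's 75th percentile, computed from the 164 miRNAs that every array detected. On day 0 the levels were -0.37, -0.21 and -0.16. They were -0.98, -0.87 and -0.99 on day 1 and -0.96, -0.96 and -0.86 on day 4. On both days all arrays lay below all day 0 arrays, as was so for 38.1% of the 231 tested miRNAs on day 1 and 51.9% on day 4, and days 1 and 4 overlapped each other. Day 7 gave -0.50, -0.69 and -0.82, still below every day 0 array (54.1% of the tested miRNAs) and above every day 4 array (17.7%). Day 14 gave -0.23, -0.38 and -0.37, which overlapped day 0.

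Against day 0, miR-146a fell to 0.617-fold on day 1 (log2 change -0.70 ± 0.093 SE, n = 3 each, limma adjusted p = 7.30e-05). It fell to 0.625-fold on day 4 (-0.68 ± 0.093, adjusted p = 3.89e-05) and to 0.747-fold on day 7 (-0.42 ± 0.093, adjusted p = 0.00155). Under the other scalings the day 7 change was as small as -0.059 (adjusted p = 0.648). On day 14 the change was -0.079 ± 0.093 and did not pass the threshold of 0.05 (adjusted p = 0.466). Falls were common among the 231 tested miRNAs: 43.3% were called lower on day 1, 44.6% on day 4, 45.0% on day 7 and 50.2% on day 14. Ordered from the largest fall, miR-146a stood 33rd on day 1, 59th on day 4, 98th on day 7 and 158th on day 14.

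The return of miR-146a was also seen between injured groups. Day 14 was higher than day 1 by 0.62 ± 0.093 (limma adjusted p = 0.000203) and higher than day 4 by 0.60 ± 0.093 (adjusted p = 0.000697), against 23.8% and 13.9% of all tested miRNAs called higher. Day 7 was higher than day 1 by 0.28 (adjusted p = 0.0247), where 26.0% were called higher, and this call was lost without day 1 replicate 1 or 3, day 7 replicate 1 or 2 or day 14 replicate 3 (changes of 0.19 to 0.29). It was also lost with normexp background correction (0.20, limma adjusted p = 0.0630), with only those groups in the fit (adjusted p = 0.0612) and under 1 of 6 scalings (0.22, adjusted p = 0.109). Day 14 was higher than day 7 by 0.34 ± 0.093 (adjusted p = 0.0341), where 4.33% were called higher. That last call was lost when only the slide that held both groups was used (0.36, adjusted p = 0.135) or when any 1 of 6 arrays was left out, namely day 4 replicates 1 and 2, day 7 replicates 2 and 3 and day 14 replicates 1 and 3. The adjusted p without them ran from 0.0525 to 0.147. The differences of day 4 over day 1 (0.018, adjusted p = 0.891) and of day 7 over day 4 (0.26, adjusted p = 0.183) did not pass. The order of the mean levels was day 0, day 14, day 7, day 4 and day 1 from the highest down, and the neighbours day 0 and day 14, day 7 and day 4, and day 4 and day 1 were not told apart by the test.

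**Figure D1:**
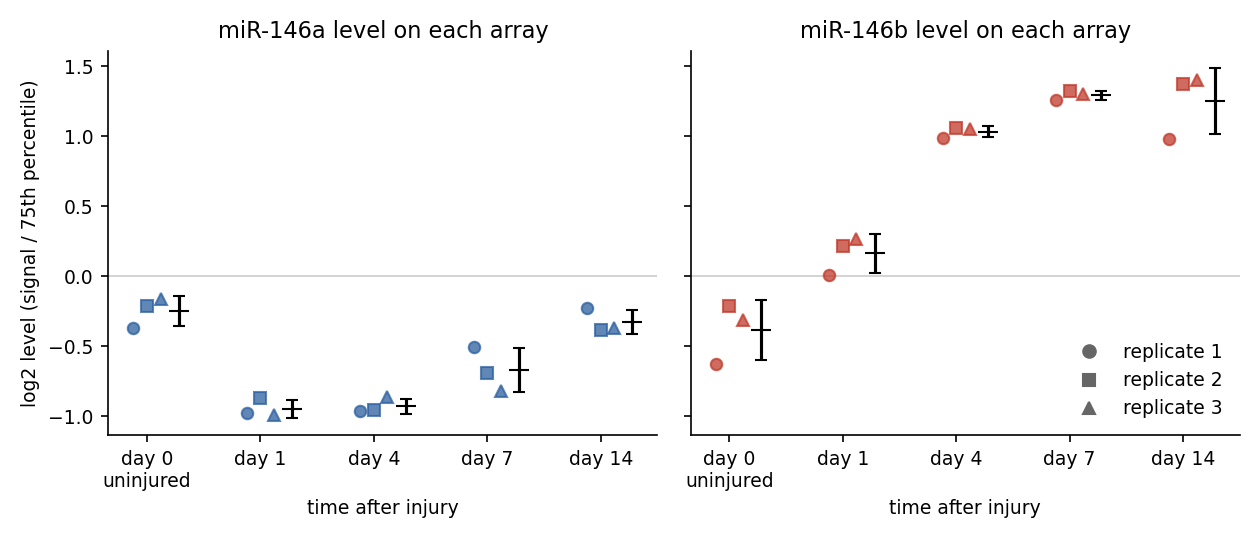
Level of miR-146a and of miR-146b on each array (y axis, log2 of signal over the array's 75th percentile) against time after injury (x axis), with replicate numbers as symbols and black bars for the group mean ± SD. miR-146a sits lowest on days 1 and 4 and overlaps day 0 on day 14, whereas every miR-146b array after injury lies above all day 0 arrays.

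miR-146b was higher at every time after injury, with its largest step between day 1 and day 4, and stayed high to day 14. On day 0 its log2 levels were -0.62, -0.21 and -0.31. Day 1 gave 0.0084, 0.21 and 0.27, all above day 0, as was so for 15.6% of the tested miRNAs. Day 4 gave 0.99, 1.06 and 1.05, and day 7 gave 1.26, 1.32 and 1.30. Both groups lay above all day 0 arrays, which held for 25.1% of the tested miRNAs on day 4 and 20.8% on day 7, and above all day 1 arrays, which held for 28.6% and 30.7%. The day 7 arrays also lay above those of day 4. Day 14 gave 0.98, 1.37 and 1.40, all above day 0 (16.0% of the tested miRNAs), where replicate 1 was at the day 4 level and the others above day 7. The intensities before scaling rose too, but their mean was highest on day 14. They were 414, 523 and 493 units on day 0 and 1132, 1146 and 1139 on day 4. On day 7 they were 1575, 1622 and 1695, and on day 14 they were 1808, 1621 and 2424.

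Against day 0, miR-146b was 1.46-fold higher on day 1 (log2 change 0.55 ± 0.13 SE, n = 3 each, limma adjusted p = 0.00267), where 16.5% of the tested miRNAs were called higher. It was 2.67-fold higher on day 4 (1.42 ± 0.13, adjusted p = 1.83e-06), where 19.9% were called higher. On day 7 it was 3.20-fold higher (1.68 ± 0.13, adjusted p = 4.07e-07) and on day 14 it was 3.11-fold higher (1.64 ± 0.13, adjusted p = 6.35e-07), where 16.9% were called higher on each day. Ordered from the largest rise, it stood 33rd, 13th, 10th and 7th of 231 on days 1, 4, 7 and 14. Without day 0 replicate 1, the lowest day 0 array for both members, the changes of miR-146b were 0.43 (adjusted p = 0.0104), 1.30, 1.56 and 1.51 in the same order.

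Between injured groups, miR-146b rose by 0.87 on day 4 over day 1 (limma adjusted p = 0.000230), where 26.0% of all tested miRNAs were called higher. It was higher by 1.13 on day 7 over day 1 (adjusted p = 2.18e-05), again with 26.0% called higher, and by 1.09 on day 14 over day 1 (adjusted p = 2.39e-05), with 23.8%. With the scaling used here, the later groups were not told apart. Day 7 over day 4 differed by 0.26 (adjusted p = 0.296), although the arrays did not overlap, as was so in this direction for 17.7% of all tested miRNAs, and 1.30% were called higher. Day 14 over day 4 differed by 0.22 (adjusted p = 0.202), and day 14 over day 7 by -0.042 (adjusted p = 0.849). Without day 14 replicate 1 these differences were 0.35 (adjusted p = 0.0360) and 0.093 (adjusted p = 0.610). The non-call of day 14 over day 4 rested on the scaling, since the difference passed under 4 of 6 scalings and ran from 0.084 to 0.76 over them. From the highest mean down the order was day 7, day 14, day 4, day 1 and day 0.

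Over all 5 groups, both members differed in the F test of the same limma fit, as did 84.4% of the tested miRNAs. miR-146b had F = 68.4 (adjusted p = 6.52e-07) and stood 9th of 231. miR-146a had F = 24.7 (adjusted p = 4.23e-05) and stood 44th. The pooled SD within groups was 0.101 for miR-146a and 0.156 for miR-146b on the log2 scale.

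The separation of the members can be read within each array, where the ratio of miR-146b to miR-146a signal takes no scaling factor. The pair was picked for this divergence, so the ratio is described without a test, and because probes differ in efficiency its value does not say which member was more abundant. Its log2 value was -0.25, 0.00062 and -0.15 on day 0. It was 0.98, 1.08 and 1.26 on day 1, then 1.95, 2.02 and 1.92 on day 4. Every array after injury lay above every day 0 array, and every day 4 array above every day 1 array. Day 7 gave 1.76, 2.01 and 2.12, and day 14 gave 1.21, 1.75 and 1.77, with replicate 1 of day 14 the lowest of the 2 later groups and below the highest array of day 1.

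In group means, the log2 ratio was -0.14 ± 0.13 on day 0, 1.11 ± 0.14 on day 1, 1.96 ± 0.051 on day 4, 1.96 ± 0.18 on day 7 and 1.58 ± 0.32 on day 14 (SD, n = 3 each). The ratio was thus 2.37-fold that of day 0 on day 1, 4.27-fold on day 4, 4.28-fold on day 7 and 3.28-fold on day 14. Without day 14 replicate 1 the log2 difference of day 14 from day 0 was 1.90, against 1.71 with it. On day 1 the larger part of the log2 difference lay in the fall of miR-146a (-0.70, against a rise of 0.55 in miR-146b). On day 14 nearly all of it lay in miR-146b (1.64, against -0.079 in miR-146a).

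**Figure D2:**
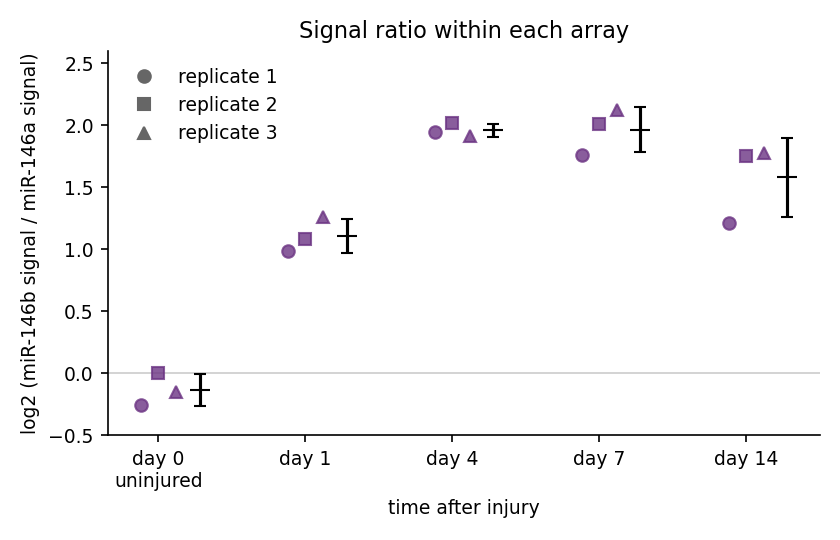
Ratio of miR-146b to miR-146a signal within each array (y axis, log2) against time after injury (x axis), with replicate numbers as symbols and black bars for the group mean ± SD. The day 0 arrays lie between -0.25 and 0.00062, the arrays after injury between 0.98 and 2.12, and days 4 and 7 share a mean of 1.96.

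Each member was read by 2 probes with 10 spots each on every array. All 300 spots of each member were well above background over the 15 arrays, and the software marked 11 spots of miR-146a and 12 of miR-146b as outliers, which were left out. The spots of 1 probe on 1 array varied by a median CV of 3.87% for miR-146a and 5.08% for miR-146b, so spot noise was small beside the changes. The probes of miR-146a gave nearly the same changes against day 0. Probe 1 changed by -0.69, -0.68, -0.43 and -0.097 on days 1, 4, 7 and 14, and probe 2 by -0.70, -0.68, -0.42 and -0.070.

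The probes of miR-146b moved the same way but not by the same amount. Probe 1 rose by 0.75 on day 1, 1.62 on day 4, 1.86 on day 7 and 1.71 on day 14. Probe 2 rose by 0.41, 1.28, 1.56 and 1.59. Each of these 8 changes passed on its own in limma, with the highest adjusted p, 0.0151, for probe 2 on day 1. From day 1 to day 4 the probes rose by the same amount (0.87 for each). The array files print no probe sequences, and how far a probe for one member also takes up the other, which shares its first 17 bases, was not tested. With the scaling used here, the signals of the members moved in opposite directions on days 1, 4 and 7.

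**Figure D3:**
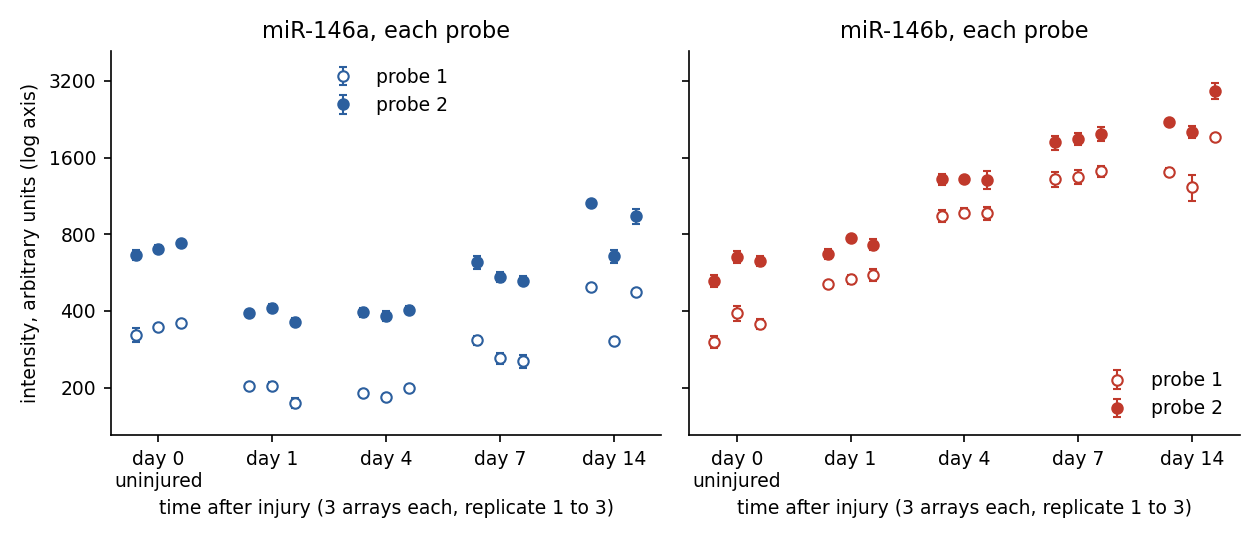
Intensity of each probe of miR-146a and miR-146b on each array (y axis, arbitrary units on a log axis) against time after injury (x axis, 3 arrays per group), with bars for the SD over the spots of a probe. Both probes of miR-146a dip on days 1 and 4, and both probes of miR-146b climb to day 4 and stay high.

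The scaling sets where zero lies for each member, since the median change of all 231 tested miRNAs was itself below 0. It was -0.26 on day 1, -0.26 on day 4, -0.32 on day 7 and -0.40 on day 14. Relative to that median, miR-146b was higher by 0.80, 1.68, 2.00 and 2.04 on days 1, 4, 7 and 14. miR-146a stood at -0.44 and -0.42 on days 1 and 4, at -0.099 on day 7 and at 0.33 on day 14, on the other side of the median. Besides the scaling above, 5 others were run: quantile normalisation, no scaling, the 75th percentile of all miRNAs, the deposited table, and a percentile reference chosen without day 14 replicate 3. All 6 called miR-146b higher at each of the 4 times and miR-146a lower on days 1 and 4. The change of miR-146a ran from -0.84 to -0.49 on day 1 and from -0.83 to -0.37 on day 4, and that of miR-146b from 0.40 to 0.76 on day 1 and from 1.64 to 2.02 on day 14.

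The call of miR-146a on day 7 did depend on the scaling. It passed under 3 of 6, and the change ran from -0.42 to -0.059. The choice of the miRNAs that set the 75th percentile turned on 1 array: with day 14 replicate 3 left out of that choice, 189 miRNAs served in place of 164, and the day 7 change was -0.26 (limma adjusted p = 0.0701). On day 14 the change of miR-146a ran from -0.079 to 0.30 and passed under 1 of 6, as a rise of 0.28 (adjusted p = 0.0373) with the 75th percentile over all miRNAs. Without day 14 replicate 3 the day 14 change was 0.035, on the other side of 0.

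**Figure D4:**
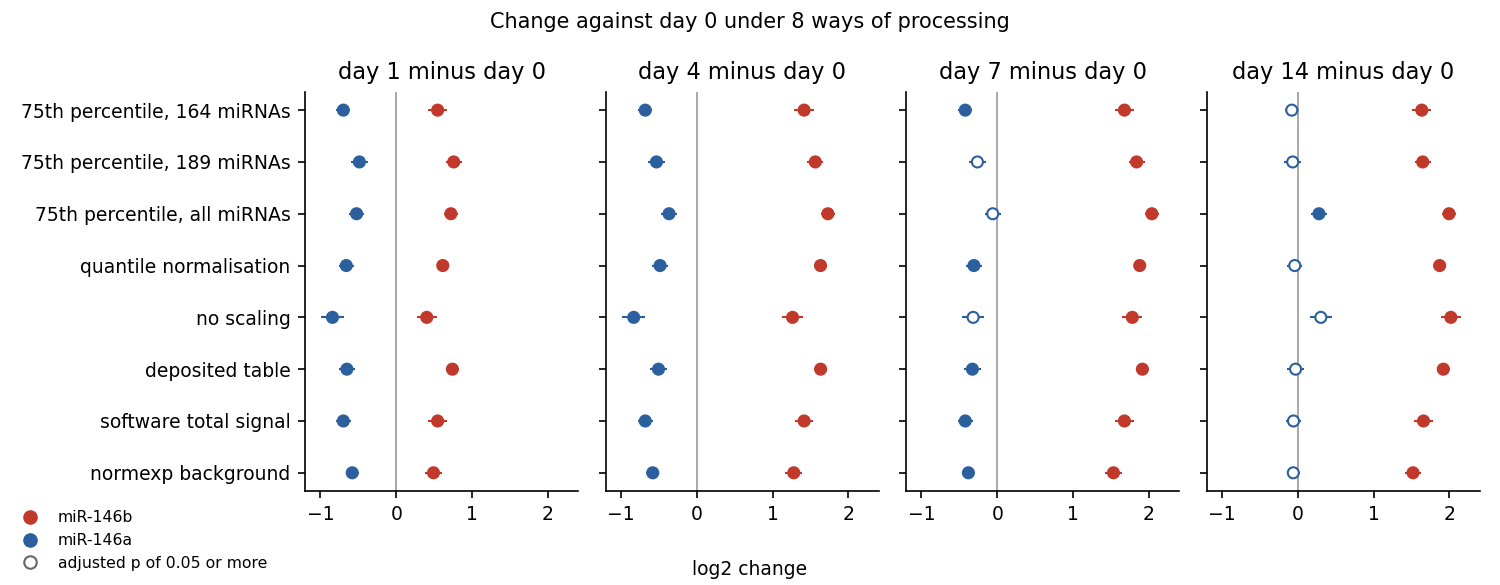
Log2 change of miR-146b and miR-146a against day 0 (x axis) on days 1, 4, 7 and 14 (panels) under 8 ways of processing the signal (y axis), where open symbols did not pass an adjusted p of 0.05. miR-146b stays right of 0 throughout, whereas miR-146a is left of 0 and filled on days 1 and 4, part open on day 7 and on either side of 0 on day 14.

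Other miRNAs known from immune cells to respond to Toll-like receptor or NF-kB signalling did not share 1 direction. The list was not set by the direction of that response, and whether the counts below reflect such a response was not tested. Of 11 listed, 10 were on the array. miR-155, the best known of them, was not among the names, and miR-147 and miR-187 were detected on no array. Of the 8 tested, 2 rose and 4 fell on each of days 1, 4 and 7, and 2 rose and 3 fell on day 14. Over all 231 tested miRNAs, 16.5%, 19.9%, 16.9% and 16.9% were called higher on days 1, 4, 7 and 14. In the same order, 43.3%, 44.6%, 45.0% and 50.2% were called lower. The median change of the 8 was -0.29, -0.27, -0.28 and -0.20 on days 1, 4, 7 and 14, against -0.26, -0.26, -0.32 and -0.40 over all tested miRNAs. The list's median was above 0 at all 4 times with quantile normalisation (0.041, 0.060, 0.0084 and 0.020), so its sign depended on the scaling.

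The 2 that rose at every time were miR-21 and miR-132. miR-21, which is induced in many injured tissues, was higher by 1.51, 3.03, 3.19 and 2.68 on days 1, 4, 7 and 14. miR-132, a miRNA under control of CREB in neurons, was detected on no day 0 array and was at least 2.74-fold, 4.84-fold, 4.20-fold and 3.52-fold higher at those times, against its own signal on day 0, which exceeded the lowest signal of a detected miRNA. Both passed under all 6 scalings at every time. miR-212, which is made from the same primary transcript as miR-132, stood at 0.47, 0.48, -0.057 and 0.14 against day 0 and passed at none of these times, although 1 of 6 scalings called it higher on day 1 and 2 of 6 on day 4.

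The falls were in miR-9, miR-125b-5p and let-7e at all 4 times. miR-9, which targets NFKB1 in human cells, fell by 0.51, 1.03, 1.07 and 1.00 on the log2 scale. miR-125b-5p, which targets TNF in mouse macrophages, fell by 0.37, 0.78, 1.00 and 1.03. let-7e fell by 0.59, 0.80, 0.58 and 0.49. The falls on days 4, 7 and 14 passed under all 6 scalings for miR-9 and miR-125b-5p. On day 1 they passed under 3 scalings for miR-9 and 2 for miR-125b-5p, and those of let-7e passed under 6, 6, 4 and 3 in order of time. miR-125a-5p and miR-99b, which are clustered with let-7e, passed at fewer times: miR-125a-5p on day 1 (-0.37, limma adjusted p = 0.0118) and miR-99b on day 4 (-0.29, adjusted p = 0.0432) and day 7 (-0.32, adjusted p = 0.0320). For miR-125a-5p the day 1 fall passed under 5 of 6 scalings. The sign of miR-99b turned with the scaling: on day 4 it was called lower under 2 of 6, and on day 7 lower under 1 and higher under 1 (0.17 in the deposited table, adjusted p = 0.0455). The number of the list called lower ran from 1 to 5 over the scalings and times.

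The samples are proximal nerve stumps of mixed cells, in which fewer cells of a type and less RNA per cell cannot be told apart. Some leukocyte miRNAs were higher after injury, as miR-146b was. The leukocyte sum and miR-223 were highest on day 1, when miR-146b had its smallest change. With the scaling used here, both arms of miR-142 and miR-146b had their largest change on day 7. For each of them, day 7 was not told apart from day 4 or day 14 (lowest limma adjusted p = 0.136). Without scaling and in the deposited table, miR-146b was highest on day 14, over day 7 by 0.24 and 0.0054. Of the 5 listed leukocyte miRNAs, miR-142-5p had the lowest log2 levels on day 0 (-4.80 to -4.68). All 5 were detected on all arrays. Their summed level, in units of the array's 75th percentile, was 1.62 to 1.92 on day 0, 3.17 to 4.26 on day 1, 2.87 to 3.23 on day 4, 2.90 to 3.20 on day 7 and 2.20 to 2.81 on day 14. Of the 5, 3 rose on each day, and 1 fell on days 4, 7 and 14. Among all 231 tested miRNAs, 16.5%, 19.9%, 16.9% and 16.9% were called higher on days 1, 4, 7 and 14. In the same order, 43.3%, 44.6%, 45.0% and 50.2% were called lower. The median change of the 5 was 0.82, 1.06, 0.80 and 0.36 on days 1, 4, 7 and 14, against -0.26, -0.26, -0.32 and -0.40 over all tested miRNAs. Their part in the rise of miR-146b was not tested.

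The leukocyte miRNAs did not run as 1 group. miR-223, a miRNA of neutrophils and other myeloid cells, was highest on day 1, with changes of 1.79, 1.14, 0.80 and 0.21 on days 1, 4, 7 and 14, the last of which did not pass (limma adjusted p = 0.286). miR-142-3p, which is expressed across blood cell lineages, rose by 0.82, 1.16, 1.54 and 1.28, and miR-142-5p, from the same hairpin, by 1.00, 1.06, 1.31 and 1.20. Both were called higher at each time. With the scaling used here their highest mean was on day 7, as was that of miR-146b, but the test did not tell it apart from day 4 or day 14. miR-150, a miRNA of mature lymphocytes, did not pass on day 1 (-0.087) and fell by 0.60, 0.73 and 0.69 on days 4, 7 and 14, which passed under 4, 6 and 5 of the 6 scalings. miR-342-3p, which immune cells also express, passed on day 14 (0.36, limma adjusted p = 0.0116) and not earlier, although 4 of the 6 scalings called it higher on days 4 and 7 too.

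**Figure D5:**
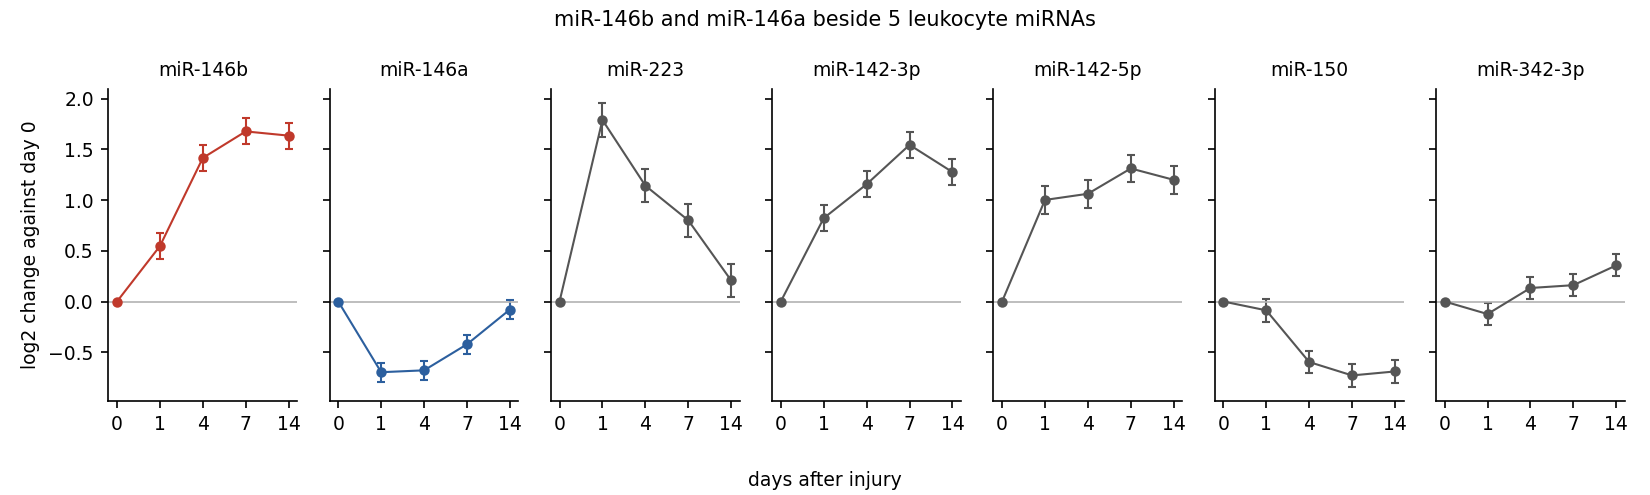
Log2 change against day 0 (y axis, with bars for the standard error of the limma fit) of miR-146b, miR-146a and 5 leukocyte miRNAs (panels) against days after injury (x axis, evenly spaced groups). miR-146b and both miR-142 arms have their highest change on day 7 (1.68, 1.54 and 1.31), not told apart by the test from day 4 or day 14. miR-223 has its highest on day 1 (1.79), and miR-146a and miR-150 do not rise.

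miRNAs of myelinating glia were lower on the days on which miR-146a was low. They were also lower on day 14, when miR-146a overlapped its day 0 level. Of the 5 listed for myelinating glia 4 were tested, and at each time 3 of these fell and none rose, where 43.3%, 44.6%, 45.0% and 50.2% of all tested miRNAs were called lower on days 1, 4, 7 and 14, and between 1 and 3 fell and none rose under the other scalings. The median change of the 4 was -0.62, -0.81, -0.91 and -0.77, against -0.26, -0.26, -0.32 and -0.40 over all tested miRNAs. The list's summed level was 16.9 to 25.9 on day 0, 11.1 to 14.7 on day 1, 8.74 to 10.3 on day 4, 8.91 to 9.80 on day 7 and 10.3 to 13.9 on day 14. miR-338, an abundant miRNA of these cells, was detected, whereas miR-219-5p was detected on 2 of the 15 arrays. The 2 arms of miR-126, an endothelial miRNA, both fell on days 1 and 14 and 1 of them on days 4 and 7, but between 0 and 2 fell under the other scalings and 1 rose on day 7 with quantile normalisation. Their summed level was 3.16 to 3.45 on day 0, 2.18 to 2.51 on day 1, 2.73 to 3.01 on day 4, 2.77 to 2.96 on day 7 and 2.26 to 2.88 on day 14.

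Of the 4 listed for smooth muscle and fibroblasts, 1 rose at each time and 2, 3, 2 and 2 fell on days 1, 4, 7 and 14. Of the 5 muscle miRNAs none rose, and 1, 2, 2 and 1 fell. Of the 2 erythrocyte miRNAs 1 rose on day 1 and 1 fell on day 14. These counts depended on the scaling. Under the others, between 1 and 2 of the smooth muscle and fibroblast list rose and between 1 and 3 fell. The erythrocyte rise was lost without scaling. Among the others, the erythrocyte fall passed only with the percentile reference chosen without day 14 replicate 3. Over all tested miRNAs 16.5%, 19.9%, 16.9% and 16.9% were called higher and 43.3%, 44.6%, 45.0% and 50.2% lower on days 1, 4, 7 and 14. With the scaling used here, the share of muscle miRNAs that fell was thus no larger than the background. The part of these cells in the values of miR-146a and miR-146b was not tested.

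Across the 15 arrays, the miRNAs most like each member were different ones. Likeness is Pearson's r of the log2 level with each of the other 230 tested miRNAs, given as a description, since arrays of a group share their time and their slide. miR-146a and miR-146b had an r of -0.19 with each other, and over the 6 scalings this ran from -0.27 to 0.29. The 5 most like miR-146a were miR-497 (r = 0.89), miR-101a (0.88), miR-196a (0.88), miR-130a (0.88) and miR-195 (0.88). Their ranks depended on the scaling: with quantile normalisation they stood 11th, 2nd, 18th, 21st and 9th in that order, and 10th, 6th, 12th, 18th and 5th in the deposited table. All 5 had changes against day 0 between -0.81 and -0.36 on days 1, 4 and 7. On day 14, miR-497 stood at 0.050 and miR-130a at 0.027, while miR-195 (-0.30), miR-101a (-0.37) and miR-196a (-0.39) were still below 0.

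The 5 most like miR-146b were miR-19b (r = 0.98), miR-34b (0.96), miR-21 (0.95), miR-34c (0.95) and miR-15b (0.94). In the deposited table miR-34b and miR-34c stood 18th and 25th, and over the other scalings these 4 besides miR-19b ranked between 2nd and 9th. miR-19b, a member of an oncogenic miRNA cluster, ranked 1st under all 6 scalings, with changes of 0.28, 0.90, 0.89 and 0.87 on days 1, 4, 7 and 14. Its change was near its largest by day 4. That of miR-146b was larger, at 1.42 on day 4 and 1.68 on day 7, a step that did not pass with the scaling used here. miR-34b and miR-34c come from 1 primary transcript that p53 induces. miR-34c was detected on no day 0 array and on 9 of 15 in all, and on days 4 and 7 it was at least 4.11-fold and 4.30-fold higher. miR-34b, detected on 13 of 15 arrays, stood at 0.21, 1.39, 1.55 and 1.21 against day 0, and miR-15b at 0.17, 0.68, 0.71 and 0.59.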

How the data were processed

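The deposited scanner files give an intensity for each spot from Agilent Feature Extraction 10.7.3.1, background-subtracted and not scaled between arrays, per the file headers. Per the labels, RNA came from a mirVana preparation and carried Cy3. The deposited table of processed values proved to be in log2 units. Each column correlated with the log2 total signal of the same array (r from 0.9946 to 0.9998 over 349 miRNAs), and the median was 4.1158 in all but day 14 replicate 3 (0.8341). How it was normalised is not given in the sources used here, and it served only as an alternative.

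Spots marked as outliers and control spots were left out, spots were averaged per probe and probes per miRNA, and signals were scaled to the array's 75th percentile among the 164 miRNAs that every array detected. Values were floored at the lowest scaled value of a detected miRNA (0.000587) and log2-transformed. The 231 miRNAs detected on all 3 arrays of a group entered a two-sided test (limma 3.58.1, R 4.3.3), in 1 model of the 5 groups (residual degrees of freedom 10, prior 2.37), with Benjamini-Hochberg adjustment within each comparison. Comparisons with day 0 share its arrays. "At least" folds set the later group against the higher of the miRNA's own signal and the lowest signal of a detected miRNA on each day 0 array. The fit was tested on simulated data.

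Members and lists were chosen with earlier results of these data known. Named miRNAs are the members, the listed pathway and leukocyte miRNAs, and the 5 most like each member. Same-numbered arrays did not deviate together (30 pairs, r from -0.74 to 0.64, 10 of them over 0.1), so replicate numbers were not used as a block. Alternatives were other scalings, background corrections, filters, probes, blocks for slide, scan day and replicate, and leaving out each array. The planned normexp correction used spot medians because spot means were not among the columns. Files were read with Python 3.11.15, pandas 2.3.3 and numpy 2.4.6, and figures drawn with matplotlib 3.10.9.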

Additional observations from a re-analysis of the deposited data

How the results depend on the processing

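All 30 alternatives kept the direction and the call of miR-146b on days 1, 4, 7 and 14 against day 0 (changes of 0.40 to 0.76, 1.26 to 1.73, 1.53 to 2.04 and 1.51 to 2.02) and of miR-146a on days 1 and 4 (-0.84 to -0.49 and -0.83 to -0.37). For miR-146a on day 7 the call was lost with the 75th percentile over all miRNAs (-0.059, limma adjusted p = 0.648), with no scaling (-0.32, adjusted p = 0.0885) and with a scaling reference chosen without day 14 replicate 3 (-0.26, adjusted p = 0.0701; chosen after seeing the data). For miR-146a on day 14 the sign turned in the first 2 of these (0.28 and 0.30) and when arrays were left out (-0.14 to 0.035). miR-146a on day 14 over day 7 lost its call with quantile normalisation (0.27), the deposited table (0.30), only those groups in the fit (0.34), that scaling reference (0.19), the shared slide alone (0.36) and left-out arrays (0.27 to 0.43). Day 7 over day 4 passed without scaling for miR-146a (0.51) and miR-146b (0.52), and with only those groups in the fit for miR-146b (0.26). miR-146b on day 14 over day 7 turned its sign without scaling (0.24), in the deposited table (0.0054), with probe 2 alone (0.028) and with left-out arrays (-0.18 to 0.093), and miR-146a on day 4 over day 1 with the other scaling reference (-0.046) and left-out arrays (-0.046 to 0.056). None of those sign changes beyond the day 14 rise of miR-146a named in the report passed the test. miR-146b on day 14 over day 4 passed with the 75th percentile of all miRNAs (0.26), quantile normalisation (0.24), no scaling (0.76) and the deposited table (0.29). The log2 ratio against day 0 moved by over its SD within groups with quantile normalisation (1.91 on day 14), the deposited table (1.95 on day 14), normexp (1.86 on day 4, 1.91 on day 7) and probe 1 of miR-146b over probe 1 of miR-146a (1.44, 2.30 and 2.29 on days 1, 4 and 7) or over its probe 2 (1.46 and 2.29 on days 1 and 4). The cause was not tested in these cases. Counts of called miRNAs stayed within 1.5 times, but higher against lower calls on days 1, 4, 7 and 14 were 54 and 85, 72 and 73, 78 and 62, and 72 and 54 under the 75th percentile of all miRNAs, against 38 and 100, 46 and 103, 39 and 104, and 39 and 116.

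With the replicate number as a block, the changes against day 0 were 0.55 (limma adjusted p = 0.000503), 1.42, 1.68 and 1.64 for miR-146b and -0.70, -0.68, -0.42 and -0.079 (adjusted p = 0.484) for miR-146a, and it changed no call of the members. Called miRNAs on days 4, 7 and 14 numbered 151, 149 and 156 with the block, against 149, 143 and 155, and on day 1 their number also moved by less than 1.5 times. The samples share only a number. Signal over background limited neither member. It limits miRNAs at the floor.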

Other observations

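The lowest r with miR-146a over the 15 arrays among the 230 other tested miRNAs was that of miR-223 (-0.89), which was picked out after its values were seen. Over the 6 scalings this r ran from -0.89 to -0.57, and miR-223 ranked between 216th and 230th. With miR-146b the lowest r were those of miR-99a and miR-499 (-0.92 each), also picked out after their values were seen. Over the scalings these ran from -0.97 to -0.75 for miR-99a and from -0.94 to -0.74 for miR-499, whose rank was as high as 199th in the deposited table.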
